A study of Homo sapiens with 8 samples.

Results

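The genes described here are 32 recognised transcriptional targets of the p53 pathway. They were chosen by gene symbol, from what is known of the pathway, with earlier results of these data known. All 32 were found among the 19770 genes of the files, and all 32 passed the filter of at least 1 CPM (a gene's reads scaled to the same total in every library) in at least 2 libraries, as did 15122 genes in all. By role, 3 of them regulate p53 itself, 10 act in cell cycle arrest and growth control, 10 in apoptosis, 4 in DNA repair and nucleotide supply, and 5 in metabolism, mitochondria or other functions. Levels are given as CPM. Changes are given as log2 fold changes of CPM + 0.5 with their standard errors (SE), and a gene passed the test at a Benjamini-Hochberg adjusted p below 0.05 over all genes tested.

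The libraries came from HEK293T, a human embryonic kidney cell line that carries the SV40 large T antigen, harvested 72 h after plasmid transfection. There were 4 groups of 2 libraries. The control (Control) received dCas9, a nuclease-dead Cas9, with MCP-mCherry, a fluorescent protein fused to the MS2 coat protein MCP. CRISPR-DREAM (DREAM) received dCas9 with MCP-MSN, which carries transactivation domains of human transcription factors, the SAM system (SAM) received dCas9-VP64 with MCP-p65-HSF1, and dCas9-VPR received a direct fusion of dCas9 to VP64, p65 and Rta. Every group, Control included, also received a pool of gRNAs against the fetal globin genes *HBG1* and *HBG2*. These gRNAs carried MS2 loops except in the dCas9-VPR group, so that the gRNA form and the number of effector plasmids cannot be told apart from the activator itself in comparisons with dCas9-VPR. No gRNA was directed at a p53 target gene. The labels number the libraries of a group 1 and 2 without saying that they came from separate cultures, so that p-values measure only the spread between these libraries.

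p53 is a transcription factor that accumulates when DNA is damaged or when growth signals are out of balance. It binds DNA as a tetramer and raises transcription of genes that halt the cell cycle, repair DNA, alter metabolism or start apoptosis, and of *MDM2*, whose product marks p53 for degradation and closes a feedback loop. Large T antigen binds p53 and blocks its transactivation, so that HEK293T cells hold much p53 protein of limited activity. The mRNA levels below do not measure p53 protein or its binding.

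The targeted gene *HBG2*, whose reads cannot be fully told apart from those of its near-identical copy *HBG1*, lay between 0.837 and 1.29 CPM in Control libraries, 2187 and 2874 CPM with DREAM, 707 and 860 CPM with SAM, and 201 and 218 CPM with dCas9-VPR. The HEK293T markers *VIM* (267 to 440 CPM), *KRT18* (79.7 to 101 CPM), *KRT8* (45.2 to 113 CPM), *NEFL* (33.3 to 47.8 CPM) and *NEFM* (13.9 to 24.0 CPM) were detected in every library, while *PAX2* was low (0.798 to 1.73 CPM). Of the markers of other cell types, *PECAM1* (0.0319 to 1.17 CPM) and *DCN* (0.0963 to 0.796 CPM) were low, whereas *COL1A1* was detected in every library (8.51 to 15.5 CPM). *PTPRC*, *CD3E*, *CDH5* and *ALB* were not analysed here. Depth, estimated from the steps between low CPM values, was 28.4 to 35.1 M reads per library, so that the member with the fewest reads in a library, *PLK2*, still had about 79 there. Residual differences in scaling touch small changes: the median log2 fold change over all genes tested was 0.06 with DREAM, 0.16 with SAM and 0.06 with dCas9-VPR relative to Control, and median-of-ratios scaling shifted it by -0.07, -0.17 and -0.05. Between the systems it shifted the median by 0.10 for DREAM relative to SAM, -0.02 for DREAM relative to dCas9-VPR and -0.12 for SAM relative to dCas9-VPR. Calls of members that this scaling ends are named beside the gene.

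To show what p53 would meet at the members that fell most, the 300 bases from 250 before to 50 after the annotated start were taken from RefSeq (GRCh38.p14, the hg38 build of the files) for the 26 members that could be matched by symbol. Each was searched on both strands for the p53 decamer, the 10-base sequence contacted by a pair of p53 molecules, of which a full response element holds a pair at most 13 bases apart. The decamer reads alike on both strands. It occurred in windows of 7 of the 26 members (26.9%), namely *PLK2*, *SESN1*, *FAS*, *DDB2*, *RPS27L*, *AEN* and *FDXR*, and in 8.06% of the 27305 genes with such windows. A pair within reach occurred in 1 member, *DDB2*, and in 10 of all these genes (0.0366%). A match is a description of letters. Only exact matches to the decamer were counted, so that elements inside the windows that depart from it by a base or more were missed. A match also need not be bound by p53. The counts of decamers and of pairs are therefore counts of exact matches and not of p53 elements. Many p53 elements also lie outside such windows, in introns or further upstream. The windows of *PLK2*, *DDB2* and *AEN*, the 3 members that fell past a fold change of 2 in at least 1 comparison, are shown 5′ to 3′ on the strand of the gene, with each decamer in capitals.
PLK2, chr5:58460037-58460336, minus strand: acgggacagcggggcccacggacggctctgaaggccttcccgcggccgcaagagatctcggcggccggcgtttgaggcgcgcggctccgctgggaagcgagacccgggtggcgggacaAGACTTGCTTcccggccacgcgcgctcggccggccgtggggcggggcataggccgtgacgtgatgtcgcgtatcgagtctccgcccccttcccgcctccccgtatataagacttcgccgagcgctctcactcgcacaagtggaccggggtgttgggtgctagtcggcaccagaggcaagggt
DDB2, chr11:47214724-47215023, plus strand: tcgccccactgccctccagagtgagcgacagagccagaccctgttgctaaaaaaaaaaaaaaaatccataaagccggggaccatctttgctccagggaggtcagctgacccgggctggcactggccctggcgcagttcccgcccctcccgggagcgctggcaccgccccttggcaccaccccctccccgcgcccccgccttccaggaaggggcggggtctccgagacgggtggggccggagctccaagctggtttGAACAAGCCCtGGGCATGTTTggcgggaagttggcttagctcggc
AEN, chr15:88621090-88621389, plus strand: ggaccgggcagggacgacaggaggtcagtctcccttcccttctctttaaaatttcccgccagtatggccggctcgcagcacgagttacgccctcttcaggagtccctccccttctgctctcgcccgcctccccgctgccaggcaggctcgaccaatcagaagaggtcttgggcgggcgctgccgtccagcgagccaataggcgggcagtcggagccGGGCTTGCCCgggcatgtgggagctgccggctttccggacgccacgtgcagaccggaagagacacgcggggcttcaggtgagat

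In *PLK2* the decamer began 132 bases before the start (position -132) and in *AEN* 34 bases before it (position -34). In *DDB2* the decamers began at positions 5 and 16 after the start of this transcript, separated by 1 base, and the window of its other annotated start (chr11:47214204-47214503) held none. No decamer was found in the windows of *TP53I3* or *BTG2*, the members that rose most, in which these letters may still lie elsewhere. Of the other members with a decamer, *SESN1* rose in each comparison with Control and *RPS27L* rose with SAM. *BBC3*, *PPM1D* and *PMAIP1* fell in each comparison and had no decamer in their windows. Whether a decamer goes with the direction of change was not tested.

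Relative to Control, the p53 targets did not move as 1 group: members of every comparison rose and fell beyond the spread between libraries. With DREAM, 5 of 32 members were higher and 14 were lower, where 18.8% of all genes tested were higher and 9.25% were lower. Past the threshold that also asks for a fold change of 2, 1 member was higher and 2 were lower with DREAM, against 2.04% and 0.503% of all genes. The median log2 fold change of the members was -0.19 with DREAM, beside 0.06 for all genes tested. With SAM, 7 members were higher and 11 were lower, against 35.7% and 8.89% of all genes, with a median of 0.05 beside 0.16. Past a fold change of 2, 1 member was higher and 3 were lower with SAM, against 3.89% and 0.456% of all genes. With dCas9-VPR, 7 members were higher and 10 were lower, against 11.0% and 6.68% of all genes, with a median of -0.06 beside 0.06. Past a fold change of 2, 1 member was higher and 1 was lower with dCas9-VPR, against 0.463% and 0.641% of all genes. These 3 comparisons share the Control libraries and are given side by side, not as separate evidence.

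Under median-of-ratios scaling the members split into 4 higher and 14 lower with DREAM, against 13.7% and 14.3% of all genes. They split into 4 and 14 with SAM, against 18.1% and 21.1%, and 4 and 10 with dCas9-VPR, against 8.09% and 8.90%. The share of higher calls among all genes called went from 67% to 49%, from 80.1% to 46.2% and from 62.1% to 47.6%. In the fits that left out 1 library in turn, 12 of the 19 members called with DREAM, 12 of 18 with SAM and 9 of 17 with dCas9-VPR stayed past the threshold in every fit. The count with dCas9-VPR was 11 without Control replicate 2, 9 without dCas9-VPR replicate 1 and 10 without dCas9-VPR replicate 2. No member that had passed the test changed direction in any setting tried.

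**Figure D1:**
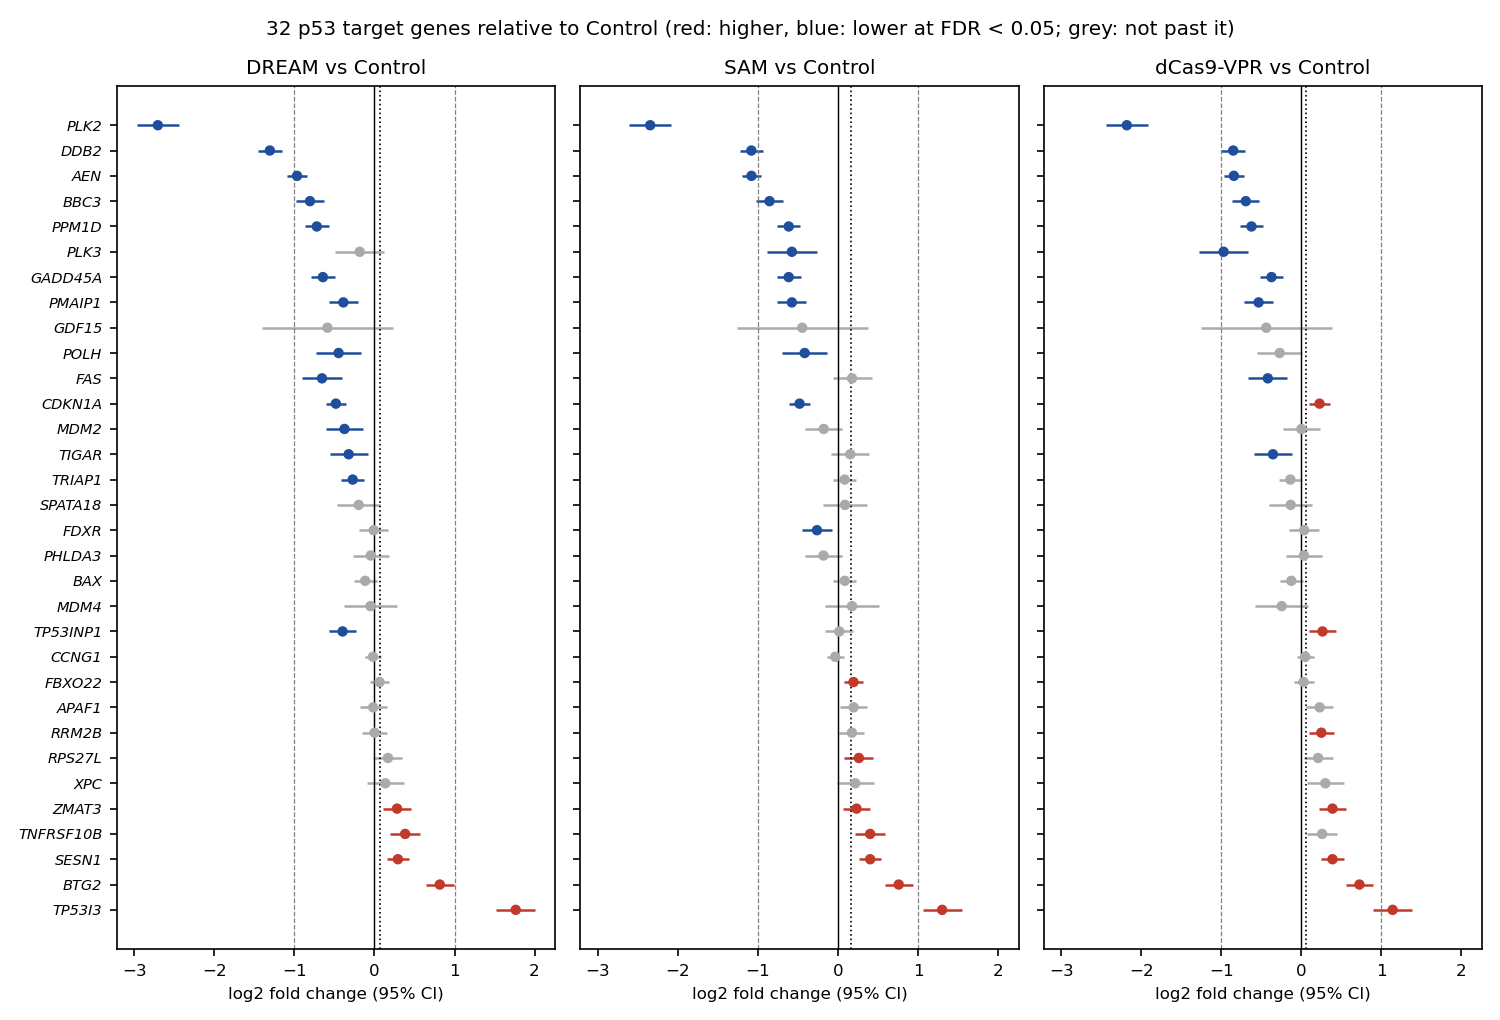
Log2 fold change of CPM + 0.5 relative to Control (horizontal axis) for the 32 p53 target genes in the DREAM, SAM and dCas9-VPR groups, with 95% confidence intervals from limma. Red and blue mark members that were higher or lower at an adjusted p below 0.05, the dotted line marks the median of all genes tested (0.06, 0.16 and 0.06) and the dashed lines a fold change of 2. *PLK2* lies furthest to the left (-2.71, -2.35 and -2.18) and *TP53I3* furthest to the right (1.77, 1.30 and 1.14).

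Among the regulators of p53, *PPM1D* fell in each comparison with Control, *MDM2* passed the test with DREAM and not with SAM or dCas9-VPR, and *MDM4* passed in none. *PPM1D* encodes the WIP1 phosphatase, which removes activating phosphates from p53 and its upstream kinases. It stood at 88.3 and 81.7 CPM in Control, 50.9 and 51.8 with DREAM, 53.2 and 57.5 with SAM, and 54.2 and 55.7 with dCas9-VPR. The Control libraries lay above the other 6, of which the SAM and dCas9-VPR libraries overlapped. Its log2 fold changes were -0.72, -0.61 and -0.62 (SE 0.07 each), with limma adjusted p of 4.92e-05, 0.000107 and 0.000411. *MDM2*, the E3 ubiquitin ligase of the feedback loop, stood at 85.5 and 74.3 CPM in Control, 68.7 and 54.8 with DREAM, 70.5 and 70.4 with SAM, and 82.9 and 76.7 with dCas9-VPR. Its DREAM libraries differed from each other by more than the lower Control library did from the higher DREAM library. The change with DREAM was -0.38 (SE 0.10, limma adjusted p = 0.0228), and it missed the threshold without Control replicate 1 (-0.28) and without DREAM replicate 2 (-0.21). It also missed the threshold in the fit to the 4 libraries compared and in limma without its trend and robust settings. With SAM the value was -0.18 (95% interval -0.41 to 0.05), and under median-of-ratios scaling *MDM2* passed as lower (-0.36, adjusted p = 0.010). With dCas9-VPR it was 0.00 (-0.23 to 0.23), and its sign turned under that scaling. *MDM2* overlaps annotated genes on both strands, and the sources used here do not say whether counting used the strand. *MDM4*, the MDM2 relative that masks the p53 activation domain, ranged from 3.63 to 5.52 CPM and differed from Control by -0.05, 0.18 and -0.25 in the same order of systems.

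Of the cell cycle and growth control members, *PLK2* and *GADD45A* fell in each comparison with Control, and *BTG2*, *SESN1* and *ZMAT3* rose in each. *PLK2* (hg38 chr5:58453982-58460140, minus strand), a polo-like kinase of centriole duplication and stress checkpoints, stood at 21.6 and 20.5 CPM in Control. It stood at 2.82 and 2.77 CPM with DREAM, 3.60 and 3.87 with SAM, and 3.98 and 4.52 with dCas9-VPR. Control and activator libraries were far apart, and the activator groups did not overlap with each other either. Mean Control CPM was 7.53, 5.63 and 4.95 times that of the DREAM, SAM and dCas9-VPR groups, and the log2 fold changes were -2.71, -2.35 and -2.18 (SE 0.12), with limma adjusted p of 5.13e-07, 2.61e-06 and 9.38e-06. Leaving out any library kept them between -2.75 and -2.10. *GADD45A*, a stress sensor that restrains CDK1 and takes part in DNA repair, stood at 66.3 and 65.2 CPM in Control, 43.6 and 40.2 with DREAM, 44.0 and 41.5 with SAM, and 50.7 and 50.6 with dCas9-VPR. The dCas9-VPR libraries lay between Control and the other 2 systems. Its changes were -0.65, -0.62 and -0.37 (SE 0.07), with limma adjusted p of 0.000105, 0.000112 and 0.00534, and the last missed the threshold without dCas9-VPR replicate 1 (adjusted p = 0.0592) or 2 (0.0528).

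*CDKN1A* encodes p21, the inhibitor of cyclin-dependent kinases through which p53 arrests cells in G1. It stood at 153 and 154 CPM in Control, 110 and 109 with DREAM, 114 and 105 with SAM, and 173 and 186 with dCas9-VPR. DREAM and SAM libraries lay below Control and overlapped with each other, whereas both dCas9-VPR libraries lay above every other library. The changes were -0.48 with DREAM and -0.48 with SAM (SE 0.06, limma adjusted p = 0.000271 and 0.000201), and 0.23 with dCas9-VPR (SE 0.06, adjusted p = 0.0245). The rise with dCas9-VPR is small and was not kept by every setting: it missed the threshold under median-of-ratios scaling (0.18, adjusted p = 0.0668) and without either Control library or either dCas9-VPR library (0.18 to 0.28, adjusted p from 0.0761 to 0.181). *DINOL*, a long noncoding RNA transcribed from the opposite strand at *CDKN1A*, was at or below 0.601 CPM in every library.

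*BTG2*, an antiproliferative gene whose product promotes mRNA deadenylation, stood at 30.1 and 26.9 CPM in Control, 51.5 and 49.4 with DREAM, 47.6 and 49.4 with SAM, and 49.7 and 45.1 with dCas9-VPR. The 6 activator libraries lay close together, above Control. Its changes were 0.82, 0.76 and 0.73 (SE 0.08), with limma adjusted p of 6.54e-05, 8.29e-05 and 0.000437. *SESN1*, a sestrin that restrains mTORC1, stood at 41.8 and 42.4 CPM in Control, 51.7 and 51.7 with DREAM, 55.5 and 56.1 with SAM, and 57.6 and 53 with dCas9-VPR. It rose by 0.29, 0.40 and 0.39 (SE 0.06), with limma adjusted p of 0.00713, 0.000794 and 0.00379, the last of which missed the threshold without dCas9-VPR replicate 1 (0.33, adjusted p = 0.0607). With SAM the value was 0.22 under median-of-ratios scaling. *ZMAT3*, an RNA-binding zinc finger protein that acts in splicing and mRNA stability, stood at 40.1 and 35.6 CPM in Control, 45.6 and 46.5 with DREAM, 46.6 and 42.4 with SAM, and 49.6 and 49.7 with dCas9-VPR. Its values of 0.28, 0.23 and 0.39 (SE 0.08) passed the test with limma adjusted p of 0.0205, 0.0311 and 0.00864. The call with DREAM was lost under median-of-ratios scaling (0.21, adjusted p = 0.0535) and without Control replicate 2 or DREAM replicate 2 (0.20 and 0.27). That with SAM was lost under the same scaling (0.05, adjusted p = 0.591) and in 4 of the 8 fits that left out a library (without Control replicate 2, SAM replicate 1 or either dCas9-VPR library), with values from 0.15 to 0.32 over the 8 fits. That with dCas9-VPR was lost without Control replicate 2 or either dCas9-VPR library (adjusted p up to 0.0928).

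The remaining members of this role differed between the systems or passed in none. *TP53INP1*, a stress protein of p53 phosphorylation and autophagy, had 25.5 and 25.2 CPM in Control, 20.1 and 18.2 with DREAM, 25.9 and 25.4 with SAM, and 30.7 and 30.4 with dCas9-VPR. It fell with DREAM (-0.40, SE 0.08, limma adjusted p = 0.00398). With SAM its value was 0.02, and the rise with dCas9-VPR (0.26, limma adjusted p = 0.0413) was lost under median-of-ratios scaling and in 6 of 8 fits without 1 library (all but those without a DREAM library, 0.26 to 0.27 over the 8 fits, adjusted p up to 0.197). *PLK3*, another stress-responsive polo-like kinase, had 9.38 and 8.18 CPM in Control, 8.13 and 7.20 with DREAM, 5.89 and 5.54 with SAM, and 4.78 and 3.72 with dCas9-VPR. It fell with SAM (-0.58, SE 0.14, limma adjusted p = 0.00752) and dCas9-VPR (-0.97, SE 0.14, limma adjusted p = 0.00202), and the former missed the threshold without Control replicate 1 (adjusted p = 0.0547). With median-of-ratios scaling the fall with dCas9-VPR passed a fold change of 2 (-1.02). *CCNG1*, cyclin G1, was steady at 343 to 377 CPM, with values between -0.03 and 0.05 that passed in no comparison, although it passed as lower with SAM under median-of-ratios scaling (-0.22, adjusted p = 0.0137). *GDF15*, a secreted stress cytokine, did not pass: replicate 2 lay below replicate 1 in each group, by as much as 18.5 against 9.13 CPM with SAM, and its SE of 0.35 left -0.59, -0.45 and -0.44 short of the threshold.

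**Figure D2:**
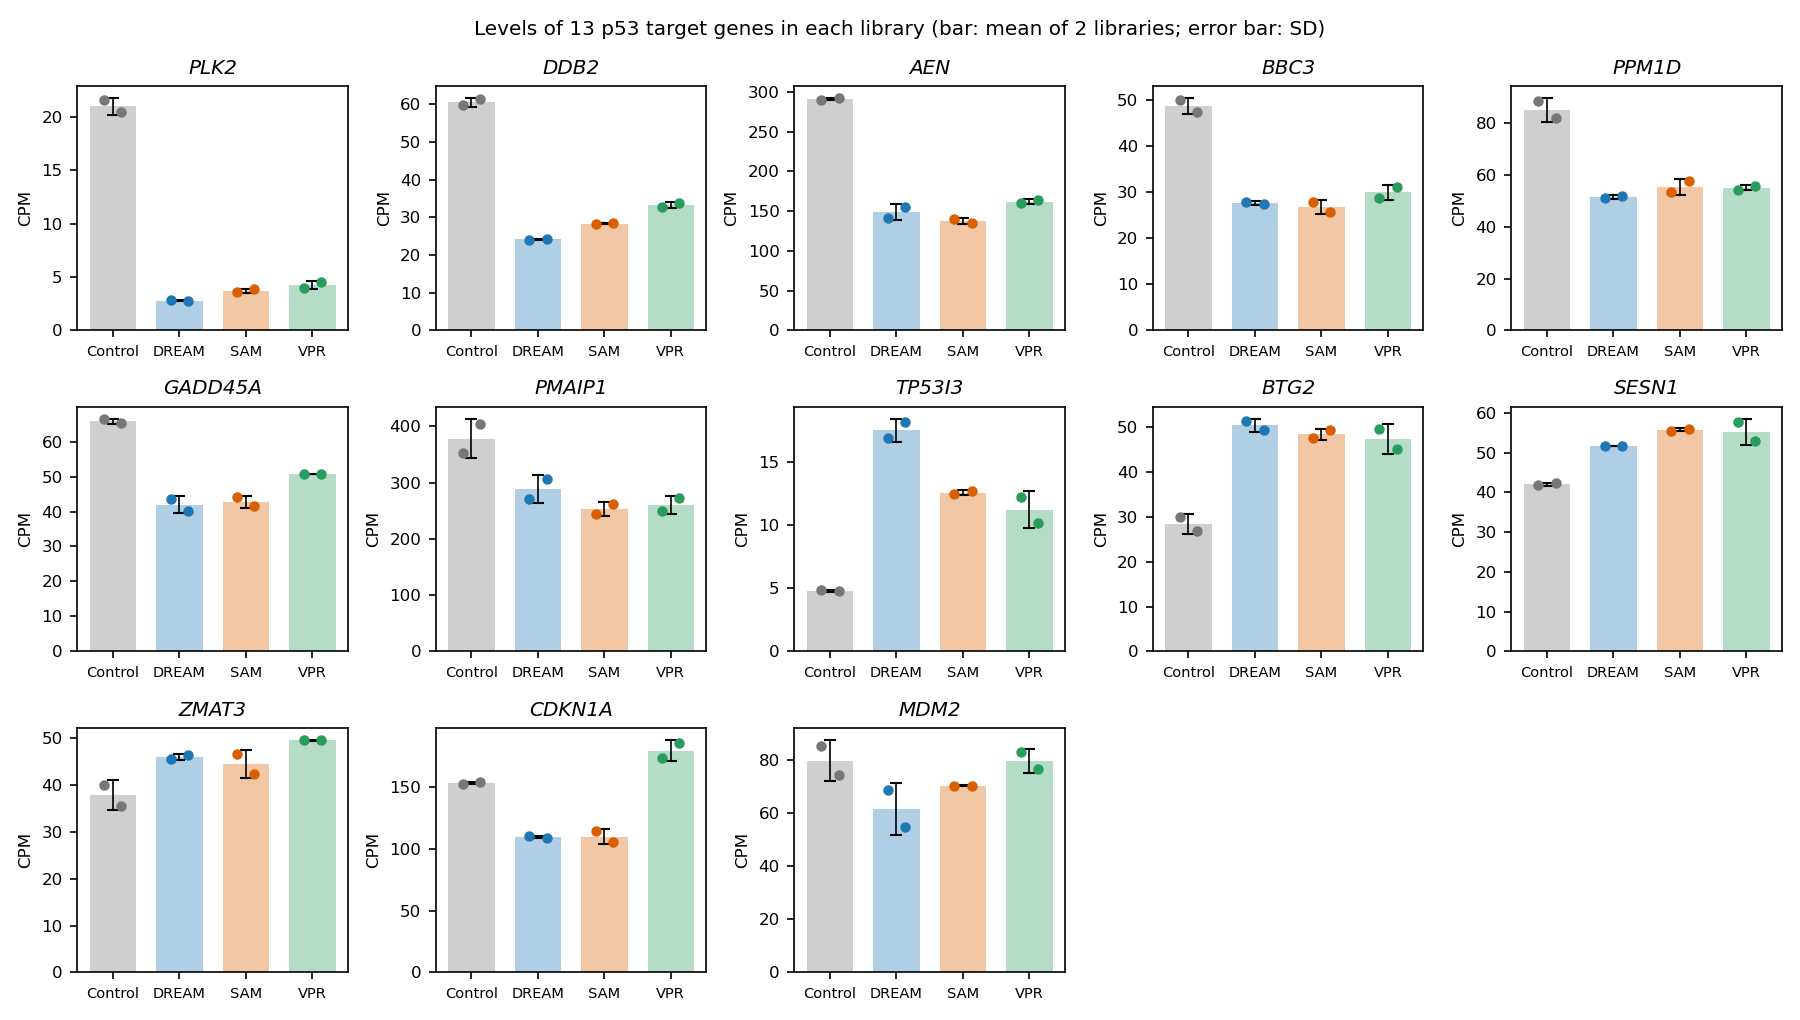
CPM (vertical axis, from 0) of 13 p53 target genes in each library of the Control, DREAM, SAM and dCas9-VPR (VPR) groups. Points are libraries, bars are means of 2 libraries and error bars are SD. Control lies above the 6 activator libraries for *PLK2*, *DDB2*, *AEN*, *BBC3*, *PPM1D*, *GADD45A* and *PMAIP1* and below them for *TP53I3*, *BTG2*, *SESN1* and *ZMAT3*. *CDKN1A* is highest with dCas9-VPR (173 and 186 CPM).

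Among the apoptosis members, *AEN*, *BBC3* and *PMAIP1* fell in each comparison and *TP53I3* rose in each. *AEN* (hg38 chr15:88621337-88632282, plus strand) encodes apoptosis-enhancing nuclease, an exonuclease that p53 induces and that aids DNA breakdown in dying cells. It stood at 290 and 292 CPM in Control, 142 and 156 with DREAM, 140 and 135 with SAM, and 160 and 164 with dCas9-VPR. The Control libraries were close to each other and lay far above the other 6, of which SAM was lowest and dCas9-VPR highest. Mean Control CPM was 1.96, 2.12 and 1.80 times that of the DREAM, SAM and dCas9-VPR groups. The log2 fold changes were -0.97, -1.08 and -0.84 (SE 0.06), with limma adjusted p of 3.13e-06, 2.76e-06 and 2.00e-05, so that only the fall with SAM passed a fold change of 2. Over the 15 alternative settings the fall ranged from -1.04 to -0.90 with DREAM, -1.26 to -1.05 with SAM and -0.90 to -0.82 with dCas9-VPR, all past the threshold for adjusted p. With median-of-ratios scaling the fall with DREAM also passed a fold change of 2 (-1.04). *AEN* was singled out with earlier results of these data known, so that its p-values are descriptive. No other gene with values in these data overlaps *AEN*.

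*BBC3*, the gene of the BH3-only protein PUMA, stood at 50.1 and 47.6 CPM in Control, 27.9 and 27.5 with DREAM, 27.9 and 25.7 with SAM, and 28.8 and 31.1 with dCas9-VPR. Control lay well above the activator libraries. The changes were -0.81, -0.85 and -0.69 (SE 0.08), with limma adjusted p of 6.29e-05, 4.13e-05 and 0.000504, and that with SAM passed a fold change of 2 under median-of-ratios scaling (-1.03). *PMAIP1*, which encodes the BH3-only protein NOXA, stood at 353 and 403 CPM in Control, 271 and 306 with DREAM, 244 and 262 with SAM, and 249 and 272 with dCas9-VPR. Its changes were -0.39, -0.58 and -0.53 (SE 0.08), with limma adjusted p of 0.00632, 0.000513 and 0.00300, and the one with DREAM missed the threshold without Control replicate 2 (-0.29, adjusted p = 0.0580).

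*TP53I3* (hg38 chr2:24077433-24085862, minus strand), a quinone oxidoreductase that generates reactive oxygen species and is known as PIG3, moved the other way. It stood at 4.85 and 4.76 CPM in Control, 16.9 and 18.2 with DREAM, 12.5 and 12.7 with SAM, and 12.3 and 10.2 with dCas9-VPR. All activator libraries lay above Control and DREAM lay above the other 2 systems, at 3.65, 2.62 and 2.34 times the mean Control CPM. The log2 fold changes were 1.77, 1.30 and 1.14 (SE 0.11), with limma adjusted p of 4.95e-06, 2.92e-05 and 0.000236, and leaving out any library kept them between 1.01 and 1.82. *FAM228B*, which overlaps *TP53I3* on the opposite strand, had 4.65 and 4.39 CPM in Control, 5.91 and 4.37 with DREAM, 7.58 and 6.68 with SAM, and 4.71 and 4.08 with dCas9-VPR. The division of reads between them was not tested.

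The death receptor genes went separate ways. *FAS*, the receptor of FAS ligand, had 8.98 and 7.98 CPM in Control, 5.18 and 5.20 with DREAM, 9.94 and 9.33 with SAM, and 6.31 and 6.10 with dCas9-VPR. It fell with DREAM (-0.66, SE 0.11, limma adjusted p = 0.00175) and with dCas9-VPR (-0.42, SE 0.11, limma adjusted p = 0.0271), and its value of 0.18 with SAM did not pass. The fall with dCas9-VPR missed the threshold without either Control library or either dCas9-VPR library (-0.50 to -0.34, adjusted p up to 0.135). *FAS* is overlapped on the opposite strand by *ACTA2*, and the division of reads between them was not tested. *TNFRSF10B*, the TRAIL receptor DR5, had 123 and 110 CPM in Control, 162 and 142 with DREAM, 162 and 145 with SAM, and 145 and 133 with dCas9-VPR. It rose with DREAM (0.38) and SAM (0.40; SE 0.08 for both), with limma adjusted p of 0.00817 and 0.00395, and the former missed the threshold without Control replicate 2 (0.29, adjusted p = 0.0750). With SAM it was 0.22 under median-of-ratios scaling. Its value with dCas9-VPR was 0.26 (95% interval 0.07 to 0.45, limma adjusted p = 0.0604).

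*TRIAP1*, an inhibitor of apoptosome formation, fell with DREAM (-0.27, SE 0.06, limma adjusted p = 0.0105), from 73.0 and 71.8 CPM to 58.3 and 61.4, a call lost without either Control library (adjusted p up to 0.0576). In the other 2 systems it stood at 0.08 and -0.14. *BAX*, the pore-forming effector of mitochondrial apoptosis, *APAF1*, the scaffold of the apoptosome, and *PHLDA3*, which restrains AKT, passed in no comparison with Control. Their log2 fold changes ranged from -0.13 to 0.09 for *BAX*, -0.02 to 0.23 for *APAF1* and -0.18 to 0.03 for *PHLDA3*, the last of which passed as lower with SAM under median-of-ratios scaling (-0.36, adjusted p = 0.0119).

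In the DNA repair role, *DDB2* (hg38 chr11:47214465-47239218, plus strand), the damage-recognition subunit of the UV-DDB complex, stood at 59.7 and 61.4 CPM in Control. It stood at 24.1 and 24.2 CPM with DREAM, 28.2 and 28.5 with SAM, and 32.8 and 33.9 with dCas9-VPR. No group overlapped with another, DREAM being lowest. Mean Control CPM was 2.51, 2.14 and 1.82 times that of the 3 systems, and the log2 fold changes were -1.31, -1.08 and -0.85 (SE 0.07), with limma adjusted p of 1.44e-06, 5.86e-06 and 6.72e-05. *XPC*, its partner in nucleotide excision repair, ranged from 38.9 to 51.4 CPM and passed in no comparison (0.14, 0.22 and 0.30), and its DREAM libraries differed from each other by as much as the groups did, at 49.0 and 40.1 CPM. *POLH*, the translesion polymerase eta, fell with DREAM (-0.45) and SAM (-0.42, SE 0.13 for both), with limma adjusted p of 0.0245 and 0.0226, from 19.4 and 15.6 CPM in Control to 13.8 and 11.5 with DREAM and 12.6 and 13.2 with SAM. Both calls were lost without Control replicate 1, that with DREAM also without DREAM replicate 2 and that with SAM also without either SAM library, with adjusted p up to 0.171 and values from -0.60 to -0.30 with DREAM and -0.57 to -0.26 with SAM over the 8 fits. *RRM2B*, the p53-inducible subunit of ribonucleotide reductase, had values of 0.00 and 0.17 that did not pass with DREAM and SAM. It rose with dCas9-VPR (0.25, SE 0.07, limma adjusted p = 0.0361), a call lost under median-of-ratios scaling and in 5 of 8 fits without 1 library (without Control replicate 2, either SAM library or either dCas9-VPR library, 0.16 to 0.34 over the 8 fits, adjusted p up to 0.276).

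Among the metabolic and mitochondrial members, none passed a fold change of 2. *TIGAR*, a phosphatase that lowers glycolytic flux, had 18.0 and 15.4 CPM in Control, 14.0 and 12.5 with DREAM, 17.8 and 19.5 with SAM, and 13.5 and 12.4 with dCas9-VPR. It fell with DREAM (-0.32) and dCas9-VPR (-0.36, SE 0.11 for both), with limma adjusted p of 0.0474 and 0.0462. Each of these calls was lost in 6 of 8 fits without 1 library, with log2 fold changes from -0.46 to -0.21, and was kept only without DREAM replicate 1 in both comparisons, without Control replicate 2 with DREAM and without DREAM replicate 2 with dCas9-VPR. *FDXR*, the mitochondrial ferredoxin reductase, fell with SAM (-0.26, SE 0.08, limma adjusted p = 0.0259), which was lost without Control replicate 1 or SAM replicate 2 (-0.37 to -0.15 over the 8 fits, adjusted p up to 0.202) and was -0.44 under median-of-ratios scaling. *RPS27L*, a ribosomal protein paralog that binds MDM2, rose with SAM (0.26, SE 0.08, limma adjusted p = 0.0247), as did *FBXO22*, an F-box protein (0.19, SE 0.06, limma adjusted p = 0.0170). Both rises are near the shift of all genes with SAM and were gone under median-of-ratios scaling (0.08 and 0.01). They were also lost without Control replicate 2 or SAM replicate 1, and *FBXO22* without SAM replicate 2 as well (adjusted p up to 0.163 and 0.127). *SPATA18*, which acts in mitochondrial quality control, ranged from 13.1 to 19.0 CPM and passed in no comparison.

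In direct comparisons between the systems, no member passed a fold change of 2. Between DREAM and SAM, 5 of 32 members differed, against 10.7% of all genes tested. *FAS* (-0.83, limma adjusted p = 0.00449), *TIGAR* (-0.48, 0.0233), *TP53INP1* (-0.42, 0.0132) and *TRIAP1* (-0.36, 0.0116) were lower with DREAM, and *TP53I3* was higher (0.46, 0.0272). No call of these 5 was kept by every fit without 1 library. Without SAM replicate 2, limma called 0 members, with 9 at an unadjusted p below 0.05. Without DREAM replicate 2 or SAM replicate 1, the 2 calls left were *FAS* and *TRIAP1*, and without DREAM replicate 1 there were 8 calls. *TRIAP1* was also lost under median-of-ratios scaling (-0.25, adjusted p = 0.0515), and in a fit to the 4 libraries compared alone *FAS* was the 1 call left.

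Between DREAM and dCas9-VPR, 9 of 32 members differed, against 13.1% of all genes tested. *CDKN1A* (-0.71, SE 0.06, limma adjusted p = 0.000157), *TP53INP1* (-0.66, 0.000943) and *DDB2* (-0.46, 0.00267) were lower with DREAM in every setting tried. *PLK2* (-0.53, 0.0175), *MDM2* (-0.38, 0.0406), *GADD45A* (-0.27, 0.0247) and *RRM2B* (-0.25, 0.0442) were lower as well, and *PLK3* (0.79, 0.00638) and *TP53I3* (0.62, 0.00635) were higher. Without dCas9-VPR replicate 2 the only calls left were *CDKN1A*, *TP53INP1* and *DDB2*, and without DREAM replicate 2 or dCas9-VPR replicate 1 there were 5. *MDM2* was lost in 5 of 8 fits without 1 library (DREAM replicate 2 and each SAM and dCas9-VPR library, -0.54 to -0.21) and *RRM2B* in 8 of 8 (-0.33 to -0.16).

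Between SAM and dCas9-VPR, 11 of 32 members differed, against 29.9% of all genes tested. *CDKN1A* was lower with SAM (-0.71, SE 0.06, limma adjusted p = 0.000123) and *FAS* was higher (0.60, SE 0.11, limma adjusted p = 0.00305), and these calls held in every setting tried. *FDXR* (-0.30, limma adjusted p = 0.0216), *TP53INP1* (-0.25, 0.0353), *GADD45A* (-0.24, 0.0202), *AEN* (-0.24, 0.00999) and *DDB2* (-0.23, 0.0246) were lower with SAM, and *TIGAR* (0.51, 0.00585), *TRIAP1* (0.22, 0.0255), *BAX* (0.21, 0.0312) and *FBXO22* (0.17, 0.0453) were higher. *TRIAP1*, *BAX* and *FBXO22* were lost under median-of-ratios scaling (0.09, 0.08 and 0.04). The split of the members there became 2 higher and 12 lower, beside 2063 higher and 2431 lower of all 15122 genes. *AEN*, *DDB2*, *GADD45A* and *TP53INP1* then stood at -0.37, -0.36, -0.37 and -0.38. Without SAM replicate 2, or without dCas9-VPR replicate 2, *CDKN1A* and *FAS* were the 2 calls left, and 7 were left without SAM replicate 1 and 5 without dCas9-VPR replicate 1. For *AEN* the value without SAM replicate 2 was -0.21 (adjusted p = 0.0877) and without dCas9-VPR replicate 2 it was -0.22 (adjusted p = 0.0874). Its differences of DREAM from SAM (0.11, 95% interval -0.01 to 0.24) and from dCas9-VPR (-0.12, -0.25 to 0.00) did not pass.

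**Figure D3:**
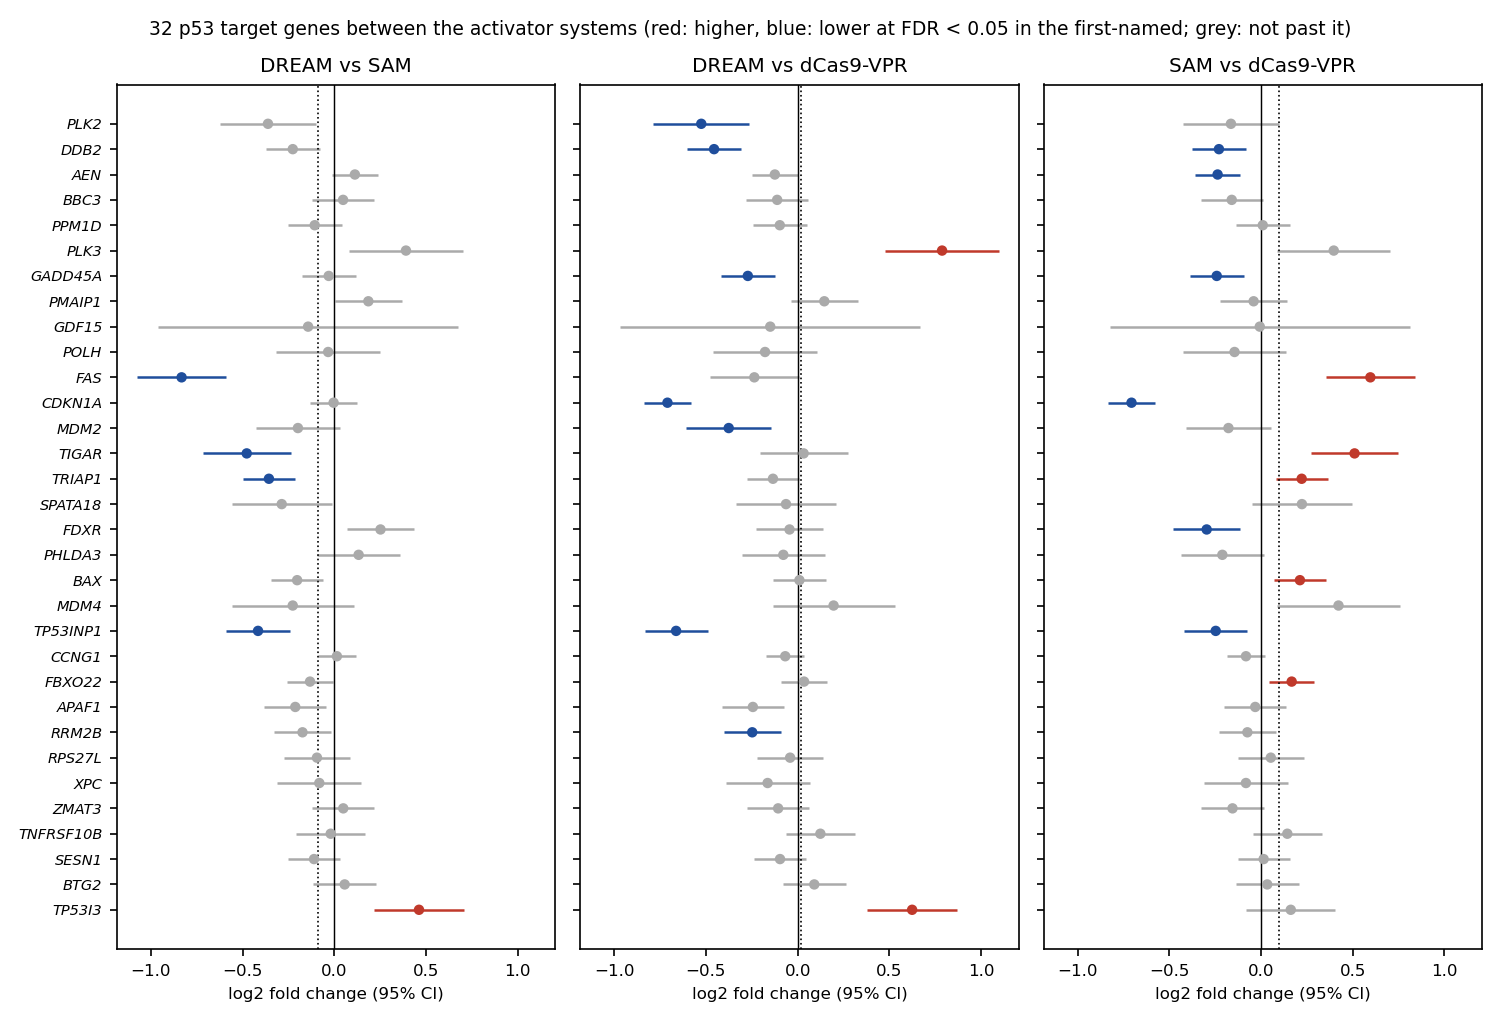
Log2 fold change of CPM + 0.5 (horizontal axis) of the 32 p53 target genes between pairs of systems, with 95% confidence intervals from limma. Red and blue mark members higher or lower in the system named first at an adjusted p below 0.05, and the dotted line marks the median of all genes tested. *CDKN1A* is lower with DREAM and with SAM than with dCas9-VPR (-0.71 in each), and *FAS* is lower with DREAM than with SAM (-0.83).

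Other genes of the pathway were followed in 3 further lists. Of 23 regulators of p53 tested, 1 was higher and 2 were lower with DREAM, 11 and 3 with SAM, and 3 and 3 with dCas9-VPR, with medians of 0.04, 0.25 and 0.08 beside 0.06, 0.16 and 0.06 for all genes tested. Of all genes, 18.8% were higher and 9.25% were lower with DREAM, 35.7% and 8.89% with SAM, and 11.0% and 6.68% with dCas9-VPR. None passed a fold change of 2. Under median-of-ratios scaling, 5 were higher and 5 were lower with SAM, against 18.1% and 21.1% of all genes. With DREAM 1 was higher and 5 were lower, against 13.7% and 14.3%.

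Of 36 genes tested among further p53-activated genes, 8 were higher and 9 were lower with DREAM, 12 and 7 with SAM, and 4 and 7 with dCas9-VPR, with medians of 0.07, 0.10 and 0.07. Of all genes, 18.8%, 35.7% and 11.0% were higher and 9.25%, 8.89% and 6.68% were lower in the same order of systems. The counts of higher genes were near these shares with each system, and the counts of lower genes were above them. Under median-of-ratios scaling, 6 were higher and 9 were lower with SAM, against 18.1% and 21.1% of all genes. As among the 32 members, large changes went both ways. Past a fold change of 2, 1 gene was higher and 3 were lower with DREAM, against 2.04% and 0.503% of all genes. With SAM these counts were 1 and 2, against 3.89% and 0.456%. With dCas9-VPR they were 2 and 2, against 0.463% and 0.641%. *CD82*, a tetraspanin known as a metastasis suppressor, rose from 2.42 and 1.66 CPM in Control to 8.54 and 8.71 with DREAM, 8.06 and 7.56 with SAM, and 5.29 and 5.68 with dCas9-VPR. Its log2 fold changes were 1.86, 1.72 and 1.25 (SE 0.15), with limma adjusted p of 2.20e-05, 3.36e-05 and 0.000759. *ZNF79*, a zinc finger gene, fell from 22.2 and 22.6 CPM to 8.07 and 8.60, 9.32 and 8.67, and 7.30 and 6.77 in the same order, by log2 fold changes of -1.38, -1.27 and -1.61 (SE 0.10), with limma adjusted p of 1.24e-05, 1.94e-05 and 1.34e-05. *EDA2R*, a receptor of the TNF receptor family, fell by 1.60, 1.27 and 1.22 on the log2 scale (SE 0.19), from 5.42 and 6.88 CPM in Control to between 1.37 and 2.63 CPM. *SFN*, the gene of 14-3-3 sigma, which holds cells in G2, passed a fold change of 2 with dCas9-VPR (1.15, SE 0.20, limma adjusted p = 0.00494). It had 1.02 and 1.27 CPM in Control, 2.37 and 3.23 with DREAM, 1.40 and 1.99 with SAM, and 2.80 and 3.53 with dCas9-VPR. Its DREAM and dCas9-VPR libraries overlapped. *TRIM22*, an interferon-inducible ubiquitin ligase, passed it as lower with DREAM (-1.03, SE 0.27, limma adjusted p = 0.0179). It went from 1.66 and 1.17 CPM in Control to 0.664 and 0.246 with DREAM. Both genes lie near the filter of 1 CPM, and *TRIM22* was below it in each DREAM library.

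Cell cycle genes that active p53 is known to lower, among them *CCNB1*, *PLK1* and *AURKA*, fell with DREAM and SAM. Of 12 tested, 11 were lower with DREAM and 8 with SAM, against 9.25% and 8.89% of all genes, with medians of -0.38 and -0.34 beside 0.06 and 0.16, and 0 were higher by limma, also at an unadjusted p below 0.05. With dCas9-VPR 1 rose (*CCNB2*, 0.22, limma adjusted p = 0.0272), a call that median-of-ratios scaling ended (0.17, adjusted p = 0.0781), and 0 were lower by limma. At an unadjusted p below 0.05, 5 were higher and 1 was lower with dCas9-VPR, and the median was 0.05 beside 0.06 for all genes. Compared directly, 11 of 12 were lower with DREAM than with dCas9-VPR (median -0.44), against 5.21% of all genes (median 0.02), and 10 were lower with SAM than with dCas9-VPR (median -0.37), against 6.32% (median 0.10). *PLK1*, the mitotic polo-like kinase, stood at 158 and 164 CPM in Control, 116 and 117 with DREAM, 109 and 105 with SAM, and 165 and 172 with dCas9-VPR. *AURKA*, the spindle kinase Aurora A, stood at 85.9 and 96.1 CPM in Control, 58.0 and 58.3 with DREAM, 60.6 and 62.5 with SAM, and 80.1 and 86.2 with dCas9-VPR. Under median-of-ratios scaling 11 were lower with DREAM, 12 with SAM and 0 with dCas9-VPR, against 14.3%, 21.1% and 8.90% of all genes. *CDKN1A*, described above, was also lower in the 2 groups where these genes fell. Whether p53 activity, the share of transfected cells, cell number or growth rate moved with these values was not tested. In bulk RNA fewer cells of a kind and less RNA per cell cannot be told apart.

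**Figure D4:**
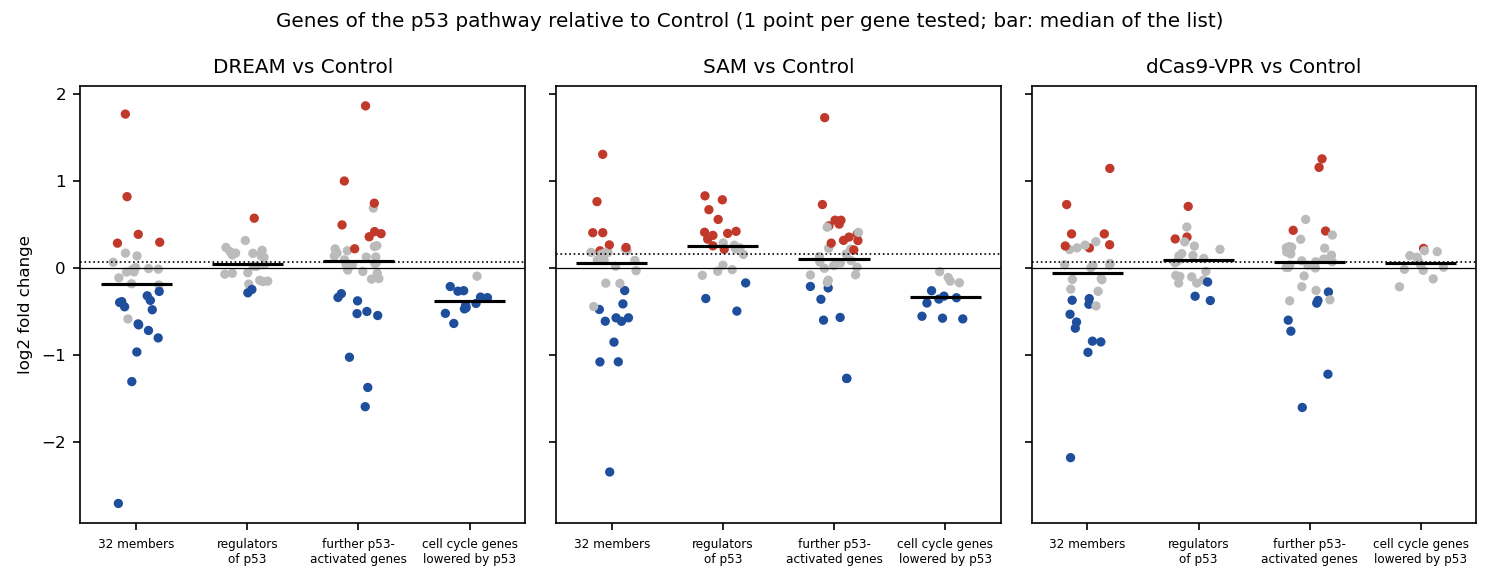
Log2 fold change of CPM + 0.5 relative to Control (vertical axis) for the 32 members, 23 regulators of p53, 36 further p53-activated genes and 12 cell cycle genes lowered by p53. Points are genes tested (red higher, blue lower at an adjusted p below 0.05, grey not past it), short bars are medians and the dotted line is the median of all genes tested. The cell cycle genes lie below 0 with DREAM and SAM (medians -0.38 and -0.34) and around 0 with dCas9-VPR (0.05).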

How the data were processed

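The members and gene lists were chosen with earlier results of these data known. Per the submitters' processing notes, the authors aligned reads with STAR 2.7.3a to hg38, and per the study's methods they estimated transcript levels with a Bayesian method. The deposited unit is CPM, and the values show that the authors had added 0.0001 to each, which was subtracted here. The protocol names a total RNA kit, whereas the labels give polyA RNA. Only 65.7% to 71.0% of low CPM values were whole reads (within 0.05 read), so that no count model was run.

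Genes reaching 1 CPM in 2 or more libraries were kept. Their log2(CPM + 0.5) values entered a limma fit (version 3.58.1, R 4.3.3, with the trend and robust settings) over all 8 libraries, with a mean for each of the 4 groups, which leaves 4 residual degrees of freedom, and 6 comparisons. P-values were adjusted by Benjamini-Hochberg over 15122 genes. With 2 libraries a group an exact permutation test cannot go below p = 0.333. The fold change threshold of 2 is the one the study used. Each library's values are given for members past a fold change of 2 in a comparison, members past the test in 1 direction in all 3 comparisons with Control, and *AEN*, *CDKN1A* and *MDM2*. They are also given for other members that differed between systems, chosen after their values were seen. Promoter windows were searched with Python 3.11.15. The alternatives were pseudocounts of 0.1 and 1 CPM, median-of-ratios scaling, no filter, only the 4 libraries compared, a replicate block, limma without its trend and robust settings, and leaving out each library. Some genes of the further lists are not reported here and were left out of those lists' counts.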

Additional observations from a re-analysis of the deposited data

How the results depend on the processing

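Of 630 values of the 13 members given per library, under 15 alternative settings, 594 kept their direction and side of the threshold, 30 missed the threshold, 3 newly passed it and 3 turned sign, all 3 being *MDM2* with dCas9-VPR relative to Control, which was near 0 (-0.0508 under median-of-ratios scaling, -0.10 to 0.10 without 1 library). Counts past a fold change of 2, both directions together, stayed within 1.5 times of those reported, but the count of lower members with dCas9-VPR went from 1 to 2 with a pseudocount of 0.1 CPM, under median-of-ratios scaling, without Control replicate 2 and without dCas9-VPR replicate 1. Without 1 library, the count of members at an adjusted p below 0.05 ranged from 9 to 20 with dCas9-VPR relative to Control, 0 to 8 for DREAM relative to SAM, 3 to 9 for DREAM relative to dCas9-VPR and 2 to 13 for SAM relative to dCas9-VPR. The lone library of a group is then assumed to vary like the other groups. The fits to the 4 libraries compared gave 1 for DREAM relative to SAM and 5 for DREAM relative to dCas9-VPR, and limma without trend and robust options gave 7 for SAM relative to dCas9-VPR. Relative to Control, *MDM2*, *POLH*, *TIGAR* and *ZMAT3* with DREAM were lost in both of these settings. Without those options *FBXO22*, *FDXR*, *RPS27L* and *ZMAT3* with SAM were lost, as were *CDKN1A*, *RRM2B*, *TIGAR* and *TP53INP1* with dCas9-VPR. Without the filter *TIGAR* was lost with DREAM and dCas9-VPR, and *TP53INP1* with dCas9-VPR. *AEN* in SAM relative to dCas9-VPR ranged from -0.27 to -0.21 without 1 library.

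Replicate numbers occur in every group, but the labels do not say what they mark. Differences between replicates correlated by 0.133 to 0.326 between groups over 15122 genes, and with 2 numbers the libraries were not treated as paired. The replicate block gave 21 members (6 higher, 15 lower) with DREAM relative to Control, 24 (10 and 14) with SAM and 24 (11 and 13) with dCas9-VPR, with *GDF15* among those added with DREAM and SAM, *MDM2* with SAM, *XPC* with SAM and dCas9-VPR and *TNFRSF10B* with dCas9-VPR. It gave 16 members (4 higher, 12 lower) for DREAM relative to SAM, 14 (4 and 10) for DREAM relative to dCas9-VPR and 18 (9 and 9) for SAM relative to dCas9-VPR, and *AEN* in DREAM relative to dCas9-VPR then passed (-0.12, adjusted p = 0.0334). The share of all genes called under the replicate block is not given here, so these counts of members cannot be set against it. Whether the added calls are particular to the p53 targets was not tested. The cause was not tested for any of these shifts in calls. By the estimated depth, the member with the fewest reads, *PLK2*, had about 79 in a library, and the bearing of depth on these calls was not tested.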
